A study of Mus musculus with 6 samples.

Results

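The large subunit of the cytosolic ribosome, the 60S particle, is built from ribosomal RNA and a set of proteins encoded by the Rpl and Rplp genes. These genes were followed in primary Sertoli cells, the somatic cells that nurse germ cells inside the seminiferous tubules of the testis. Members were all protein-coding genes whose symbol is Rpl and a number, with or without the ending a, l or l1, or Rplp0, Rplp1 or Rplp2. Rpl39 and Rpl39l were left out by name and the processed pseudogenes Rpl6l and Rpl32l by type, which left 49 of the 29275 genes in the files. Of these, 48 reached 1 FPKM (fragments scaled by exonic length and by library depth) in at least 3 of the 6 libraries and were tested, among 12284 tested genes in all. Rpl3l did not reach that level.

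Total RNA was sequenced from 3 libraries labelled cKO, from mice with a conditional deletion of Arhgef15 in Sertoli cells, and from 3 libraries labelled WT. Arhgef15 encodes a guanine nucleotide exchange factor for small GTPases. All cells carried the label untreated and were kept in culture in medium with serum, antibiotics and EGF. No label names the Cre driver, the deleted exons, the strain, the age of the mice or whether animals were pooled.

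Ribosomal proteins are made in nearly matched amounts, imported into the nucleolus and assembled there onto ribosomal RNA. Their mRNAs are among the most abundant of growing cells, and in vertebrates most begin with a run of pyrimidines, the 5′ terminal oligopyrimidine or TOP motif, through which mTOR signalling controls their translation. In the testis, several X-linked ribosomal protein genes have autosomal copies that are transcribed in meiotic germ cells, when the X chromosome is silent.

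The first set of sequences shows the start sites of the members with the highest and the lowest differences between the genotypes, described below with their values. Each line holds 40 bases around the transcription start annotated by RefSeq on GRCm38.p6, 20 before it and 20 from it onwards, 5′ to 3′ on the strand of the gene. Capitals mark a run that starts with C, continues with at least 5 further pyrimidines and begins within 5 bases of the annotated start. Rpl35, Rpl22l1, Rpl28, Rpl15 and Rpl10l had the highest log2 differences, and Rpl24, Rpl37, Rpl37a and Rpl36a were 4 of the 5 members with the lowest.
Rpl35: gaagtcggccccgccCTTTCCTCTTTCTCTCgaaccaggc
Rpl22l1: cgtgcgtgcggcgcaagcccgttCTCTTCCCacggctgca
Rpl28: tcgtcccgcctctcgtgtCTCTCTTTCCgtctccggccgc
Rpl15: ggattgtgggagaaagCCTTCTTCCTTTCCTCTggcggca
Rpl10l: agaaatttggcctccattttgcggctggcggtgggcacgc
Rpl24: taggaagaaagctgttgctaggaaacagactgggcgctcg
Rpl37: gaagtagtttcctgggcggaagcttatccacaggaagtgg
Rpl37a: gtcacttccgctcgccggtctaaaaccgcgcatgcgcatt
Rpl36a: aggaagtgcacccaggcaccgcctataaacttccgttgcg
The windows lie at chr2:39005112-39005151 (-) for Rpl35, chr3:28805488-28805527 (+) for Rpl22l1, chr7:4792945-4792984 (+) for Rpl28, chr14:18270967-18271006 (-) for Rpl15 and chr12:66284382-66284421 (-) for Rpl10l. Those of the other genes lie at chr16:55966255-55966294 (+) for Rpl24, chr15:5116593-5116632 (+) for Rpl37, chr1:72711240-72711279 (+) for Rpl37a and chrX:134585634-134585673 (+) for Rpl36a. Of these 9 windows, chosen by the log2 difference, the 4 of Rpl35, Rpl22l1, Rpl28 and Rpl15 hold a run, as do 15 of all 37 members with a promoter entry, among them Rpl12, the next lowest after Rpl36a. No window is shown for Rpl29. Over all members with an entry, medians with and without a run are given with the promoter motifs.

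The second set compares a germ cell copy with its parent over the stretch of coding sequence from base 334 to base 393, counted from the A of the start codon. It was chosen because no other stretch of its length in the coding sequence holds more differences. Capitals mark the 14 bases at which they differ.
Rpl10l: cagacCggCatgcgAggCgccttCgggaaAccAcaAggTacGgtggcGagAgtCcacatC
Rpl10: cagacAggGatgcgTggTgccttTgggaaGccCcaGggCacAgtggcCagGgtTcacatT
The Rpl10l stretch lies at chr12:66283965-66284024 (-) and that of Rpl10 at chrX:74272676-74272735 (+) on GRCm38, both within exons. Over the whole coding sequence of 645 bases, 98 bases differed between the pair, an identity of 84.81%, and the longest identical run within it was 23 bases. The untranslated parts were not compared. Over its whole transcripts Rpl10l shares 7.598% of its stretches of 50 bases with other genes.

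Depth, worked out from the step between neighbouring values, lay between 16790000 and 20320000 fragments per library. Arhgef15 did not go the way of the label. The libraries labelled cKO had 0.501, 0.322 and 0.338 FPKM, against 0.123, 0.0237 and 0.349 FPKM in WT libraries (limma adjusted p = 0.903 over all 29275 genes; exact permutation p = 0.3, where 0.1 is the smallest possible), but a value over the whole gene does not show whether the deleted exons are gone. Across tested genes WT replicate 3 was less like WT replicates 1 and 2 (r = 0.860 and 0.898 on the log2 scale) than like the libraries labelled cKO (r = 0.921 to 0.947). The 12 Sertoli markers summed to 659, 497 and 746 FPKM in the libraries labelled cKO and to 220, 172 and 673 FPKM in WT libraries. Clu was the largest part of each sum. It had 450, 335 and 452 FPKM in the libraries labelled cKO and 107, 79.2 and 476 FPKM in WT libraries. Fshr, the receptor for follicle-stimulating hormone, was at most 1.42 FPKM in any library and listed at 0 in WT replicates 1 and 2. Gata4 did not follow the sum, with 63.1 FPKM in WT replicate 1, its highest library, and 29.6 FPKM in WT replicate 3, its lowest. The 12 macrophage markers summed to 338, 179 and 263 FPKM in the libraries labelled cKO and to 1383, 1120 and 305 FPKM in WT libraries. By these sums, and by the mean log2(FPKM + 1) of each list, WT replicates 1 and 2 had more macrophage and less Sertoli marker signal than the other 4 libraries. The 5 markers of peritubular myoid cells summed to 654, 789 and 1194 FPKM in the libraries labelled cKO and to 2924, 2294 and 487 FPKM in WT libraries. Their mean log2(FPKM + 1) was 4.78, 4.06 and 5.77 in the libraries labelled cKO and 5.53, 5.25 and 4.74 in WT libraries. By that measure replicate 3 labelled cKO was the highest library. The log2 difference was above 0 for 2 of these 5 markers and below 0 for 3. The part of these cell types in the differences given below was not tested. In bulk RNA a lower number of cells of a type and less RNA per cell cannot be told apart.

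The members together took 5.63%, 5.31% and 4.79% of all FPKM in the libraries labelled cKO, against 7.72%, 5.97% and 5.22% in WT libraries. The groups overlapped, since WT replicate 3 lay below replicates 1 and 2 labelled cKO. WT replicate 1 stood above all other libraries, and it was the highest library for 37 of the 48 tested members. The lowest library was replicate 3 labelled cKO for 19 members and WT replicate 3 for 16. Rplp0 and Rplp1 alone made up 25.7% to 29.3% of the members' sum. Averaged over the 6 libraries, 38 of the 49 members exceeded 100 FPKM and 8 lay below 50 FPKM. The sum of the large subunit genes was 1.503, 1.498 and 1.48 times that of the 33 small subunit genes in the libraries labelled cKO, and 1.51, 1.35 and 1.35 times in WT libraries.

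**Figure D1:**
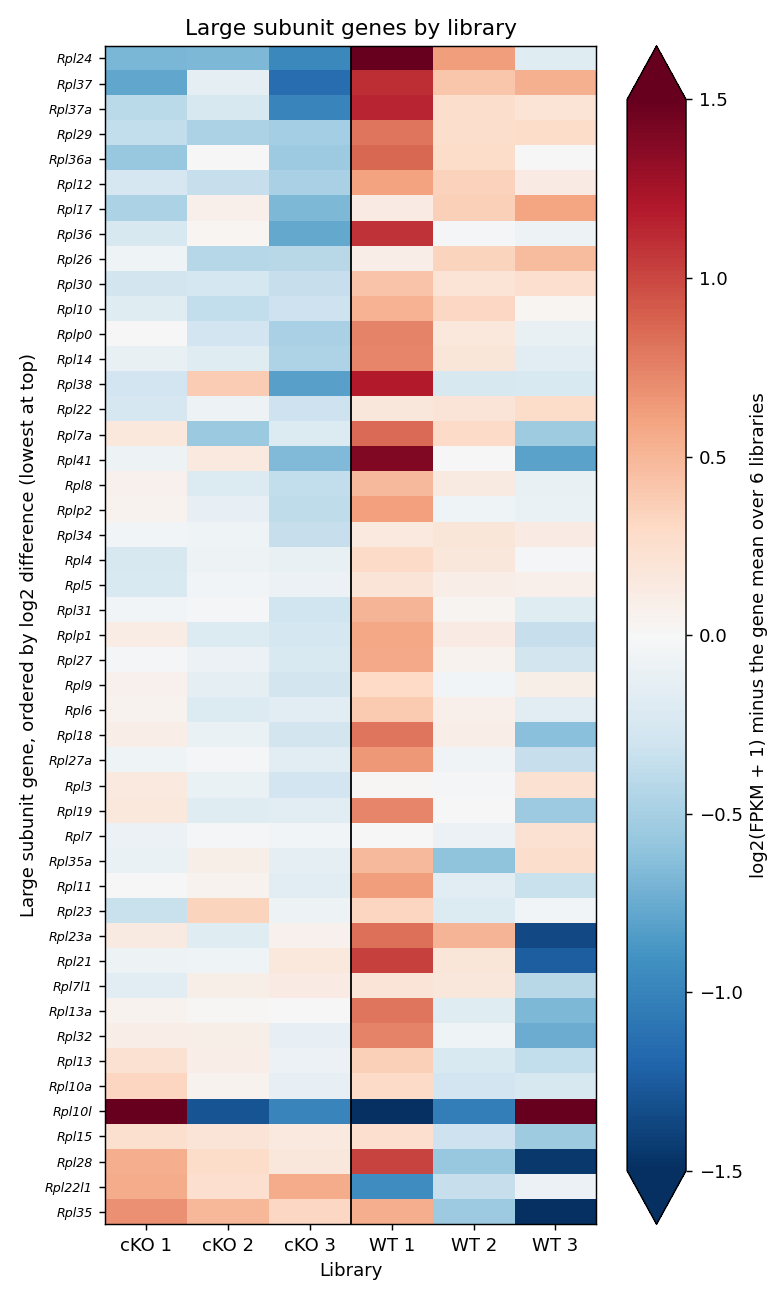
Heat map of 47 of the 48 tested large subunit genes in each library, libraries labelled cKO on the left and WT libraries on the right. Colour gives log2(FPKM + 1) minus the mean of the gene over the 6 libraries, red above and blue below, and genes run down the page by their log2 difference between the groups, lowest at the top. WT replicate 1 is the highest library for 36 of the 47 genes drawn.

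None of the 48 tested members passed the threshold (limma, Benjamini-Hochberg adjusted p under 0.05 over 12284 genes), and the smallest adjusted p was 0.545. Over all tested genes the same rule called 2 genes, 0.0163%, both lower in the libraries labelled cKO. At an unadjusted p under 0.05, 11 members were lower (2.94% of all tested genes were) and 1 was higher (3.87% of all tested genes were). The log2 difference, libraries labelled cKO minus WT libraries on the log2(FPKM + 1) scale, was below 0 for 36 members and above 0 for 12, while 40.2% of all tested genes lay below 0. With median-ratio scaling 41 members lay below 0, and with quantile normalization 28 did. The median over all tested genes was then 0.018 and -0.002. The share of all tested genes below 0 was not worked out in these settings, so 40.2% is not its measure there. Without such scaling the median log2 difference was -0.24 over the members and 0.08 over all tested genes. Standard errors ran from 0.18 to 1.32, with a median of 0.27.

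In 13 members, 27.1% of those tested, all 3 values of the libraries labelled cKO lay below all 3 WT values, which held for 5.01% of all tested genes. These were Rpl24, Rpl37, Rpl37a, Rpl29, Rpl12, Rpl17, Rpl26, Rpl30, Rpl10, Rpl22, Rpl34, Rpl4 and Rpl5. The reverse held for Rpl22l1 alone, beside 6.28% of all tested genes. These numbers depended on single libraries. Without WT replicate 1, 13 members lay wholly below and 8 wholly above WT, where 9.4% and 12.7% of all tested genes did, and the median was -0.07. Without WT replicate 3, 27 members lay wholly below, where 15.5% of all tested genes did, and the median was -0.43. Without replicate 1 labelled cKO, 20 members lay wholly below, where 11.8% of all tested genes did. With quantile normalization the median was -0.09, and 8 members lay wholly below and 5 wholly above, where 6.63% and 4.94% of all tested genes did.

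**Figure D2:**
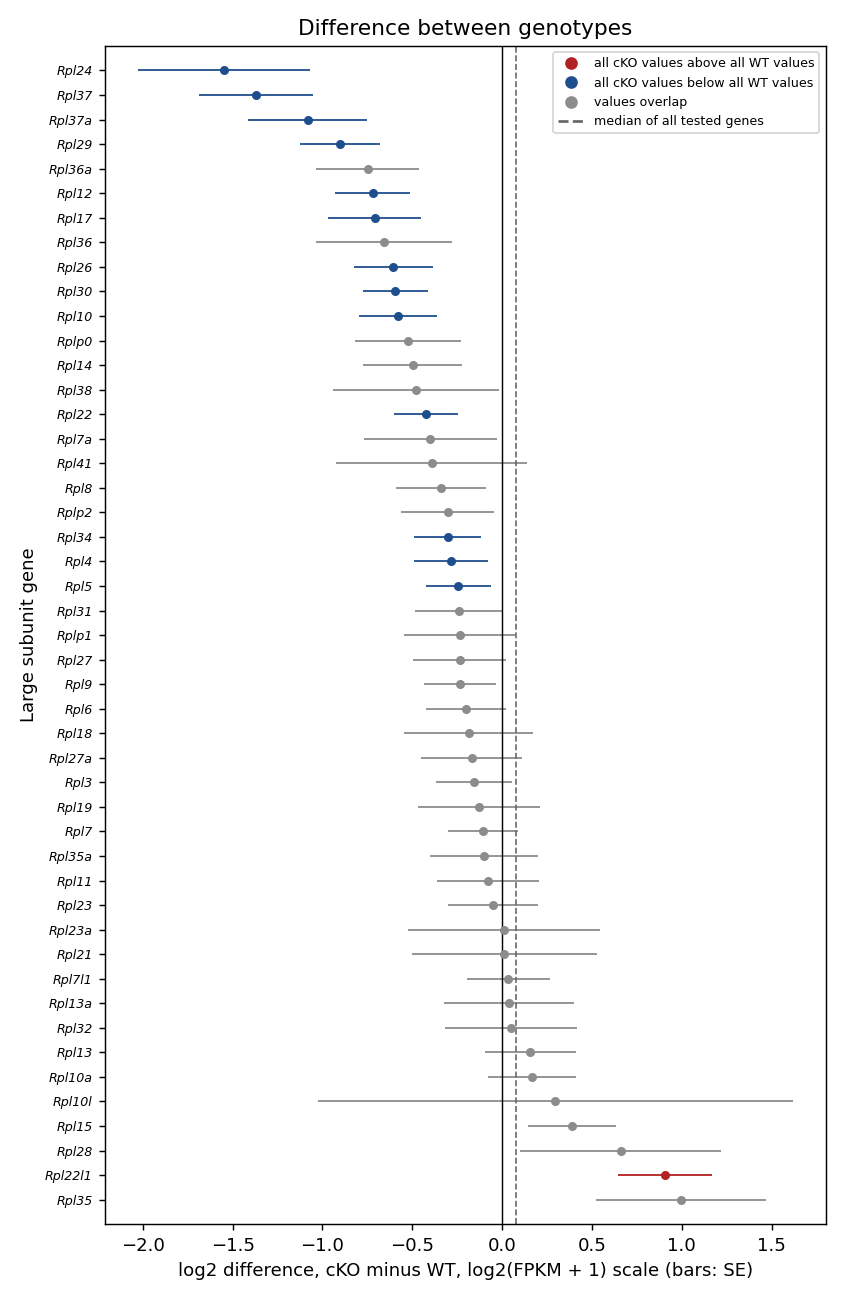
Log2 difference of 47 of the 48 tested large subunit genes between the libraries labelled cKO and the WT libraries, on the log2(FPKM + 1) scale, with bars of 1 SE from limma and a dashed line at the median of all tested genes. Colours mark genes whose values lie wholly below WT (13, blue), wholly above WT (1, red) or overlap (grey). Of the genes drawn 35 lie below 0 and 12 above, and the values run from -1.55 for Rpl24 to 1.00 for Rpl35.

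The P stalk is the flexible arm of the large subunit that recruits the elongation factors. Its base protein Rplp0 was listed at 1516, 1243 and 1085 FPKM in the libraries labelled cKO, against 2543, 1699.5 and 1409 FPKM in WT libraries. Rplp1, one of the acidic proteins carried by Rplp0, had the highest mean FPKM of all members. It was listed at 3546, 2838 and 2732 FPKM in the libraries labelled cKO, against 4904, 3561 and 2577 FPKM in WT libraries. Its acidic partner Rplp2 was lower on this scale, at 262, 231 and 194 FPKM in the libraries labelled cKO, against 387, 242 and 237 FPKM in WT libraries. Exonic length, by which FPKM is scaled, was 499 bases for Rplp1 and 2072 bases for Rplp2. In fragments, Rplp1 had 23773 to 45889 per library and Rplp2 had 8042 to 15023. The groups overlapped for all 3 genes, with WT replicate 1 the highest library in each. The log2 differences were -0.52 (SE 0.29, limma adjusted p = 0.781) for Rplp0, -0.24 (SE 0.31, limma adjusted p = 0.906) for Rplp1 and -0.30 (SE 0.26, limma adjusted p = 0.869) for Rplp2. Without WT replicate 1 they were -0.29 for Rplp0, -0.0052 for Rplp1 and -0.073 for Rplp2. The ratio of Rplp1 to Rplp0 was 2.34, 2.28 and 2.52 in the libraries labelled cKO, against 1.93, 2.10 and 1.83 in WT libraries, without overlap between the groups. That of Rplp1 to Rplp2 was 13.6, 12.3 and 14.1 in the libraries labelled cKO, against 12.7, 14.7 and 10.9 in WT libraries, with overlap. Neither ratio was tested, and the size of each depends on the exonic lengths. Rpl12, which sits beside Rplp0 at the foot of the stalk, had 199, 187 and 170.1 FPKM in the libraries labelled cKO, against 361, 304 and 260.3 FPKM in WT libraries. Every value of Rpl12 in the libraries labelled cKO lay below every WT value, with a log2 difference of -0.72 (SE 0.21, limma adjusted p = 0.582).

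Rpl5 and Rpl11 travel with the 5S ribosomal RNA as a particle of their own and, when free, bind the p53 ligase Mdm2. Rpl5 was listed at 173, 196 and 189 FPKM in the libraries labelled cKO, against 230.0, 217 and 213 FPKM in WT libraries. These groups did not overlap, but lay close together, with a log2 difference of -0.24 (SE 0.18, limma adjusted p = 0.84). Rpl5 shares 85.4% of its stretches of 50 bases with transcripts of other genes. For Rpl11 the levels were 186, 194 and 167 FPKM in the libraries labelled cKO, against 289, 166 and 148 FPKM in WT libraries. Here the groups overlapped, since WT replicates 2 and 3 lay below all libraries labelled cKO while WT replicate 1 was the highest of the 6, and the log2 difference was -0.08 (SE 0.28, limma adjusted p = 0.967).

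The 6 members at the rim of the exit tunnel, through which the new protein leaves the ribosome, went in both directions, 4 below 0 and 2 above. Rpl17, whose protein also lines the tunnel, averaged 162 ± 45.9 FPKM in libraries labelled cKO and 261 ± 42.05 FPKM in WT libraries (SD, n = 3 each), and Rpl26 averaged 401 ± 59.7 FPKM in libraries labelled cKO and 609.8 ± 81.02 FPKM in WT libraries. Both were lower in every library labelled cKO than in every WT library, with log2 differences of -0.71 (SE 0.26, limma adjusted p = 0.655) and -0.60 (SE 0.22, limma adjusted p = 0.655). Rpl17 shares 44.7% of its stretches of 50 bases with other genes, and its copies are described below. Rpl19 and Rpl31 had log2 differences of -0.13 and -0.24, with overlapping groups, and that of Rpl19 turned to 0.16 with quantile normalization. Rpl23a and Rpl35 stand at the tunnel mouth, where the signal recognition particle docks. Rpl35 had the highest log2 difference of all members. It was listed at 323, 284 and 249 FPKM in the libraries labelled cKO, against 294, 137 and 69.9 FPKM in WT libraries. WT replicate 1 lay among the libraries labelled cKO, and only WT replicates 2 and 3 lay below them, and the log2 difference was 1.00 (SE 0.47, limma adjusted p = 0.755). It was 1.52 without WT replicate 1 and 0.49 without WT replicate 3. Rpl35 shares 95.1% of its stretches of 50 bases with transcripts of other genes, the highest share of all members, and its level is therefore uncertain. Rpl23a had a log2 difference of 0.01, or -0.06 with median-ratio scaling, with WT replicate 3 the lowest library and WT replicate 1 the highest.

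Among the 6 members of the core and the peptidyl transferase region, 5 lay below 0 and 1 above, with a median log2 difference of -0.22. Rpl10, whose protein is added at one of the last steps of subunit maturation, was listed at 445, 392 and 406 FPKM in the libraries labelled cKO, against 729, 630.0 and 515 FPKM in WT libraries. The groups did not overlap, with a log2 difference of -0.58 (SE 0.22, limma adjusted p = 0.673). Rpl10 shares 73.75% of its stretches of 50 bases with other genes, so its level is uncertain. Rpl4, which reaches into the exit tunnel, averaged 689 ± 39.2 FPKM in libraries labelled cKO and 841 ± 92.4 FPKM in WT libraries (SD, n = 3 each), again without overlap, at a log2 difference of -0.28. Rpl3, next to the peptidyl transferase centre, was listed at 429, 362 and 318 FPKM in the libraries labelled cKO, against 393, 383 and 453 FPKM in WT libraries. Its groups overlapped, and the log2 difference was -0.15 (SE 0.21, limma adjusted p = 0.907). Rpl8, another protein near that centre, and Rpl23, which lies on the face towards the small subunit, had log2 differences of -0.34 and -0.05, and Rpl10a, the protein of the L1 stalk, one of 0.17. Values overlapped between the groups in these last 3 genes. With quantile normalization Rpl3 turned to 0.05 and Rpl23 to 0.07.

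The 5 members with the lowest log2 differences were Rpl24, Rpl37, Rpl37a, Rpl29 and Rpl36a. Rpl37, a zinc-binding protein, was listed at 67.1, 106 and 52.2 FPKM in the libraries labelled cKO, against 252, 156 and 168 FPKM in WT libraries. The 3 libraries labelled cKO were the lowest 3, and the log2 difference of -1.37 (SE 0.32, limma adjusted p = 0.545) had the smallest p of all members. Rpl37a, a zinc-binding protein encoded by a separate gene, had 208, 234 and 139 FPKM in the libraries labelled cKO, against 612, 332 and 319 FPKM in WT libraries. Again the groups did not overlap, with WT replicate 1 far above the other WT libraries, and the log2 difference was -1.08 (SE 0.33, limma adjusted p = 0.607). Rpl29, a small basic protein, was found at 268, 249 and 242 FPKM in the libraries labelled cKO, against 605, 417 and 421 FPKM in WT libraries. The libraries labelled cKO lay within a narrow range below all WT values, at a log2 difference of -0.90 (SE 0.22, limma adjusted p = 0.545). Rpl36a, which is X-linked, had 50.001, 74.7 and 50.8 FPKM in the libraries labelled cKO, against 137, 90.4 and 74.2 FPKM in WT libraries. In this gene the groups overlapped by a small margin at replicate 2 labelled cKO and WT replicate 3, and the log2 difference was -0.75 (SE 0.29, limma adjusted p = 0.68). Rpl30, which in mammals also binds the selenocysteine insertion element of mRNAs, had 86.9, 88.1 and 82.6 FPKM in the libraries labelled cKO, against 143, 122 and 126 FPKM in WT libraries. Its groups did not overlap, and its log2 difference was -0.59 (SE 0.18, limma adjusted p = 0.607). Rpl36a and Rpl30 share 85.5% and 72.8% of their stretches of 50 bases with other genes, while Rpl37, Rpl37a and Rpl29 share 31.3%, 38.5% and 35.5%.

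Rpl24, which reaches across to the small subunit, had the lowest log2 difference of all members at a low level. It was listed at 4.91, 4.97 and 3.87 FPKM in the libraries labelled cKO, against 33.9, 13.6 and 7.41 FPKM in WT libraries. All libraries labelled cKO lay below all WT libraries, but WT values spread widely, with WT replicate 3 closest to the libraries labelled cKO. The values rested on 98, 86 and 80 fragments in the libraries labelled cKO and on 655, 274 and 155 fragments in WT libraries. Exact Poisson 95% intervals, which take in counting error alone, were taken on these fragments. Replicate 1 labelled cKO, with the most fragments of its group, allowed at most 119, and WT replicate 3, with the fewest, at least 132. These fragment numbers are not scaled by depth, and in FPKM replicate 2 labelled cKO was the highest of its group. The log2 difference was -1.55 (SE 0.48, limma adjusted p = 0.608). Without WT replicate 1 it was -0.997. Without WT replicate 3 it was -2.02 and passed the threshold (limma adjusted p = 0.0349), where the same fit called 174 genes lower, 1.42% of all tested, and 304 higher, 2.47%. Rpl24 shares 81.7% of its stretches of 50 bases with other genes and 484 exonic bases with Gm28037 on the same strand, so its level is uncertain.

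**Figure D3:**
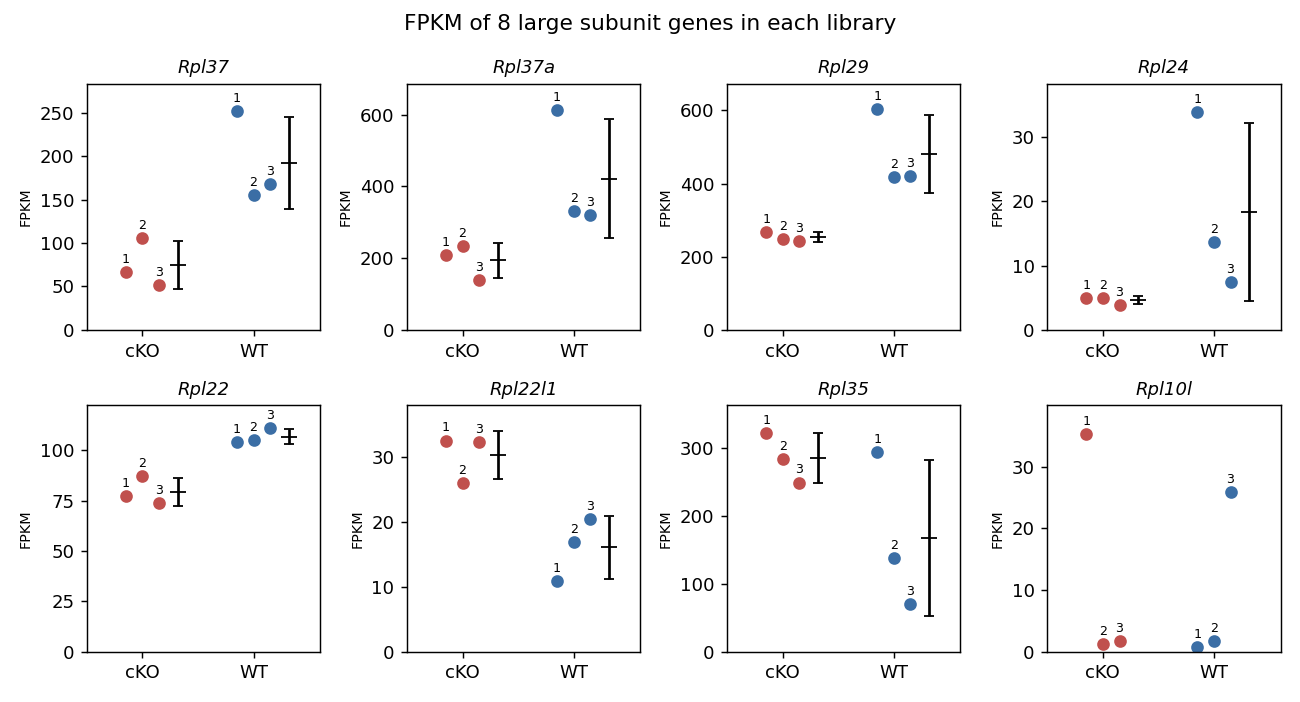
Levels of 8 large subunit genes in FPKM on linear axes that start at 0, with 1 point per library, libraries labelled cKO on the left and WT libraries on the right, and bars for the mean ± SD except for Rpl10l. Rpl37, Rpl37a, Rpl29, Rpl24 and Rpl22 have all libraries labelled cKO below all WT libraries, Rpl22l1 has them above, and the groups overlap in Rpl35 and Rpl10l.

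Besides Rpl35, the members furthest above 0 included Rpl28 and Rpl15. Rpl28, a protein of the large subunit that budding yeast lacks, was listed at 306, 255 and 237 FPKM in the libraries labelled cKO, against 426, 142 and 76.7 FPKM in WT libraries. WT replicate 1 was the highest of the 6 libraries and WT replicates 2 and 3 were the lowest, so that the spread within WT exceeded the difference between the groups, 0.66 (SE 0.56, limma adjusted p = 0.866). This was 1.33 without WT replicate 1 and 0.11 without WT replicate 3. Rpl15 had 231, 224 and 217 FPKM in the libraries labelled cKO, against 233, 157 and 135 FPKM in WT libraries. It too had WT replicate 1 level with the libraries labelled cKO and WT replicates 2 and 3 below them, at a log2 difference of 0.39 (SE 0.25, limma adjusted p = 0.81), which was 0.62 without WT replicate 1 and 0.22 without WT replicate 3.

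Some large subunit genes have a paralog that is used in particular tissues. Rpl22 is an RNA-binding protein of the subunit that mouse development of αβ T cells requires, and in mouse cells it binds and lowers the mRNA of its paralog Rpl22l1. Rpl22l1 was listed at 32.5, 26.00 and 32.3 FPKM in the libraries labelled cKO, against 10.9, 16.9 and 20.4 FPKM in WT libraries. It was the only tested member that was higher in every library labelled cKO than in every WT library, at a log2 difference of 0.91 (SE 0.26, limma adjusted p = 0.582). Rpl22 was listed at 77.2, 87.4 and 73.9 FPKM in the libraries labelled cKO, against 104, 105 and 111 FPKM in WT libraries. It went the other way, again without overlap, at a log2 difference of -0.43 (SE 0.18, limma adjusted p = 0.727). Rpl22l1 reached 42.05%, 29.76% and 43.62% of the Rpl22 level in the libraries labelled cKO, against 10.46%, 16.05% and 18.28% in WT libraries, on the scale of FPKM. Rpl22l1 shares 58.9% of its stretches of 50 bases with other genes and 159 exonic bases with Gm33051 on the opposite strand, while Rpl22 shares 5.16% of its stretches. The coding sequences of the pair were 70.19% identical. Whether the level of Rpl22 had a part in that of Rpl22l1 was not tested.

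Rpl10l is the autosomal retrocopy that replaces X-linked Rpl10 in meiotic male germ cells. It was listed at 35.3, 1.22 and 1.75 FPKM in the libraries labelled cKO, against 0.678, 1.65 and 25.9 FPKM in WT libraries. A single library of each group was high, replicate 1 labelled cKO and WT replicate 3, and the other 4 lay below 2 FPKM, so that the mean over a group describes none of its libraries. The log2 difference was 0.30 (SE 1.32, limma adjusted p = 0.973), with the largest standard error of all members. Genes of meiotic spermatocytes, chosen after the Rpl10l values were seen, had the same 2 libraries as their highest in 10 of 10 cases. Their sum was 294, 12.6 and 19.6 FPKM in the libraries labelled cKO and 13.8, 17.96 and 236 FPKM in WT libraries. The share of all tested genes with replicate 1 labelled cKO and WT replicate 3 highest was not worked out, so the count is a description. Sycp3, a protein of the synaptonemal complex, was listed at 12.3, 0.471 and 0.787 FPKM in the libraries labelled cKO, against 0.253, 0.892 and 23.7 FPKM in WT libraries. Ldhc, the lactate dehydrogenase of the germ line, had 99.3, 2.49 and 3.43 FPKM in the libraries labelled cKO, against 4.86, 5.06 and 70.2 FPKM in WT libraries. The 10 spermatid markers, all present in the files, summed to 297, 65.8 and 22.5 FPKM in the libraries labelled cKO and to 148, 69.4 and 183 FPKM in WT libraries. Whether germ cells contributed to the Rpl10l values was not tested.

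**Figure D4:**
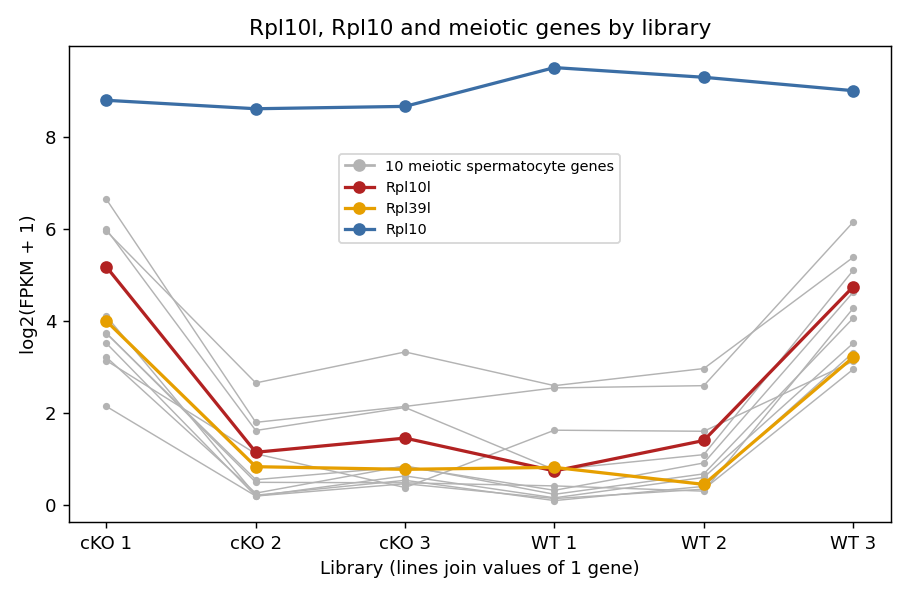
Level of Rpl10l, its parent Rpl10, the germ cell copy Rpl39l and 10 meiotic spermatocyte genes in each library, as log2(FPKM + 1), with libraries labelled cKO on the left, WT libraries on the right and a line for each gene. Replicate 1 labelled cKO and WT replicate 3 are the highest for Rpl10l, at 35.3 and 25.9 FPKM, and for the 10 meiotic genes, whose sums are 294 and 236 FPKM. The meiotic genes were chosen after the Rpl10l values were seen.

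The other paralogs did not separate the groups. Rpl7l1 was listed at 39.6, 47.2 and 48.6 FPKM in the libraries labelled cKO, against 50.8, 50.2 and 33.1 FPKM in WT libraries, and its partner Rpl7 at 339.8, 357 and 352 FPKM in the libraries labelled cKO, against 365, 342 and 426 FPKM in WT libraries. Their groups overlapped, with log2 differences of 0.03 (SE 0.23, limma adjusted p = 0.98) and -0.11 (SE 0.19, limma adjusted p = 0.934). Rpl3l, which replaces Rpl3 in striated muscle, was near the limit of detection. It had 3, 0 and 5 fragments in the libraries labelled cKO and 3, 0 and 5 in WT libraries, where 3 fragments corresponded to 0.0899 to 0.109 FPKM. At this depth no difference was detectable.

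Among the remaining members, Rpl34 was lower in every library labelled cKO, with means of 163 ± 18.2 FPKM in libraries labelled cKO and 201 ± 4.71 FPKM in WT libraries (SD, n = 3 each) and a log2 difference of -0.30. The log2 differences were -0.66 for Rpl36, -0.50 for Rpl14, -0.48 for Rpl38, -0.40 for Rpl7a and -0.39 for Rpl41, whose protein is the smallest of the ribosome. All 5 had overlapping groups, with WT replicate 1 the highest library. Values between -0.24 and -0.10 were found for Rpl27, Rpl9, Rpl6, Rpl18, Rpl27a and Rpl35a. Rpl21, Rpl13a and Rpl32 lay between 0.01 and 0.05, and Rpl13 at 0.16. Loss of Rpl38 in mice alters the axial skeleton through the translation of Hox mRNAs, and Rpl13a is released from the ribosome by interferon signalling in human myeloid cells. Rpl38 was listed at 179, 284 and 124 FPKM in the libraries labelled cKO, against 499.9, 185 and 187 FPKM in WT libraries. Its WT replicates 2 and 3 lay within the range of the libraries labelled cKO, and without WT replicate 1 the log2 difference was -0.0056.

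Log2 levels of the members were compared with each other over the 6 libraries. Over all 1128 pairs of tested members the median r was 0.55. All of these correlations rest on the same 6 libraries and are given as a description. Rpl22l1 was least like the others, with a mean r of -0.61, followed by Rpl10l with -0.26.

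Most ribosomal protein genes have many processed copies in the mouse genome, and fragments may be assigned to either. Stretches of 50 bases shared with transcripts of other genes were found in 48 of the 49 members, with a median share of 38.8%, and 17 members shared more than 50%. Across the 48 tested members this share had a Spearman correlation of -0.09 with the log2 difference, as a description. Exonic bases were shared with another annotated gene in 25 members, and without a stated strand setting their fragments cannot be told apart. With the 101 copies named after 31 of the members added to their parents, 16 members lay wholly below WT and 2 wholly above, where 4.94% and 6.27% of all tested genes did, and the median was -0.26. Each FPKM added was scaled by the exonic length of its own gene or copy, so these sums are not levels of pooled fragments. Rpl35a had the largest shift, with summed values of 91.3, 55.2 and 55.0 FPKM in the libraries labelled cKO, against 138.8, 139.8 and 164.1 FPKM in WT libraries. The summed groups did not overlap, at a log2 difference of -1.16 (limma adjusted p = 0.556), against -0.10 for Rpl35a alone. Rpl21 with its copies had 114.0, 116.8 and 136.8 FPKM in the libraries labelled cKO, against 103.7, 84.4 and 71.0 FPKM in WT libraries. It then lay wholly above WT, at a log2 difference of 0.51 (limma adjusted p = 0.74). Rpl17 with its copies had 909, 743 and 744 FPKM in the libraries labelled cKO, against 1053, 1195 and 1195 FPKM in WT libraries. These sums were far above Rpl17 alone, and the groups did not overlap, at a log2 difference of -0.53 (limma adjusted p = 0.721).

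The pyrimidine run was found at the annotated start of 15 of the 37 members that have a RefSeq promoter entry, and of 11.7% of all 17491 genes in the table. A run further than 5 bases from the annotated start was not counted. Rpl4 and Rpl5, for example, have pyrimidine stretches further upstream and were scored as without a run. The annotated starts were not checked, so a member scored as without a run may still have one. Members scored as with a run had a median log2 difference of -0.19 (15 tested) and those without of -0.24 (21 tested). Among the small subunit genes the medians were -0.47 with a run and -0.45 without. In each whole entry, searched on both strands, CCGGAAG, the core of ETS factor sites, was present in 13 of 37 members and 12.9% of all genes. AAGATGG, the core of YY1 sites, whose letters AAG can overlap with CCGGAAG, was present in 5 of 37 members and 7.18% of all genes. TATAAA was present in 4 members and 14.8% of all genes, and CACGTG, the E box, in 5 members and 8.91%. Matches are descriptions of these letters and not of binding.

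Genes that act with the large subunit were described by the same fit, and none of them passed the threshold. Of the 33 small subunit genes, 26 lay below 0 and 7 above, and 14 (42.4%) were lower in every library labelled cKO, where 40.2% of all tested genes lay below 0 and 5.01% were lower in every such library, with a median log2 difference of -0.41. Rps27 averaged 119 ± 39.7 FPKM in libraries labelled cKO and 339 ± 71.1 FPKM in WT libraries (SD, n = 3 each; log2 difference -1.54, limma adjusted p = 0.438). Rps21 averaged 139 ± 50.7 FPKM in libraries labelled cKO and 324 ± 64.9 FPKM in WT libraries (SD, n = 3 each; log2 difference -1.26, limma adjusted p = 0.545). The 18 elongation factors and other TOP mRNA genes had 14 values below 0 and 4 above, with a median of -0.17. In this list 4 (22.2%) were lower in every library labelled cKO and 0 were higher, where 5.01% and 6.28% of all tested genes were. Tpt1 and Vim had log2 differences of -0.44 and -0.57.

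Of 51 factors of 60S assembly and export, 38 lay above 0 and 13 below, 5 (9.8%) were higher in every library labelled cKO and 1 (1.96%) was lower, where 6.28% and 5.01% of all tested genes were, and the median was 0.14, against 0.08 over all tested genes. Ddx27, an RNA helicase of ribosome assembly, averaged 16.3 ± 0.529 FPKM in libraries labelled cKO and 11.5 ± 1.798 FPKM in WT libraries (SD, n = 3 each; log2 difference 0.48, limma adjusted p = 0.711). Ftsj3, a methyltransferase of pre-ribosomal RNA, and Mdn1, the ATPase that strips assembly factors, had log2 differences of 0.51 and 0.57. Of 14 subunits and factors of RNA polymerases I and III with a value, 10 lay above 0 and 4 below, with a median of 0.19. Here 3 (21.4%) were higher in every library labelled cKO and 0 were lower, beside 6.28% and 5.01% of all tested genes. Polr1a, the largest subunit of RNA polymerase I, averaged 11.1 ± 0.727 FPKM in libraries labelled cKO and 8.001 ± 0.296 FPKM in WT libraries (SD, n = 3 each; log2 difference 0.42, limma adjusted p = 0.736). Taf1a and Polr3b had log2 differences of 0.39 and 0.37. The 48 large subunit genes of the mitochondrial ribosome had 25 values above 0 and 23 below, with a median of 0.02. Of them 4 (8.33%) were higher in every library labelled cKO and 5 (10.4%) were lower, beside the same shares of all tested genes. Mrpl52 averaged 53.9 ± 10.2 FPKM in libraries labelled cKO and 101 ± 23.5 FPKM in WT libraries (SD, n = 3 each; log2 difference -0.88, limma adjusted p = 0.563). Mrpl39 and Mrpl30 had log2 differences of 0.61 and -0.47. The difference between these lists and the large subunit genes was not tested.

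**Figure D5:**
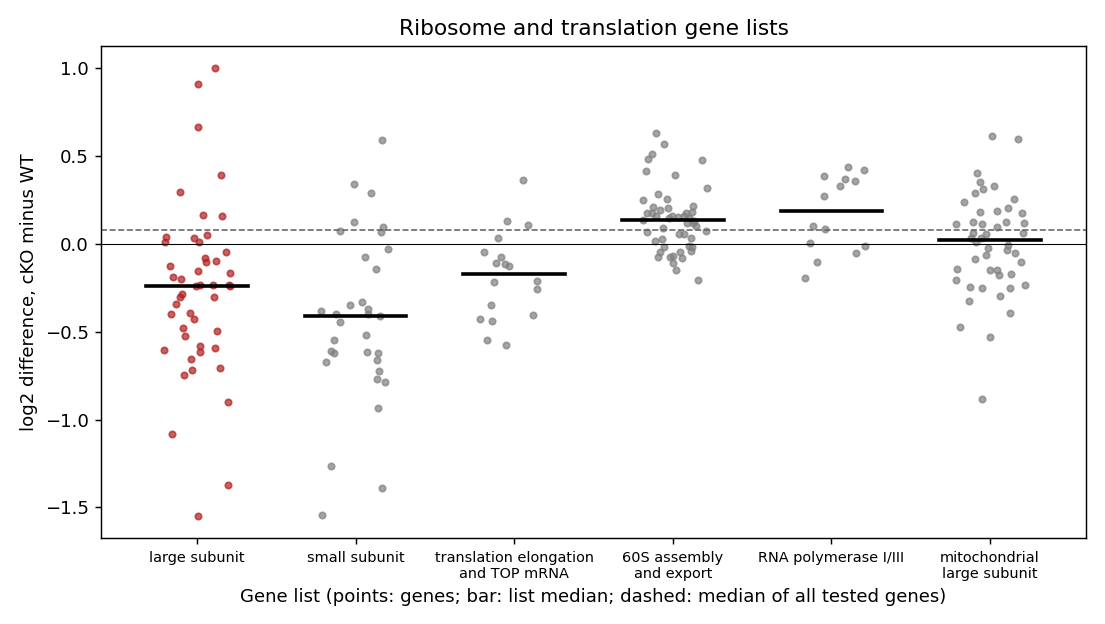
Log2 differences between the libraries labelled cKO and the WT libraries for tested genes of 6 lists, on the log2(FPKM + 1) scale, with 1 point per gene a bar at the median of each list and a dashed line at the median of all tested genes, 0.08. Medians are -0.24 for the large subunit, -0.41 for the small subunit, -0.17 for elongation and TOP mRNA genes, 0.14 for 60S assembly, 0.19 for RNA polymerases I and III and 0.02 for the mitochondrial large subunit.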

How the data were processed

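Each deposited file lists 1 number per gene for 1 library, read here as FPKM computed by the authors. The unit is not stated, but in low single-exon genes over 99% of values, multiplied by exonic length, were whole multiples of a step found for each library, within 0.02 times the number of fragments. The submitters' processing notes name FastQC, HISAT2 2.1.0 and the build mm8. Some gene identifiers are newer than annotation of that build, so the build behind the values is in doubt, and no coordinates were taken from it. How fragments were counted, with which annotation and strand setting, is not given in the sources used here. GENCODE M21 supplied symbols, gene types and lengths (28932 of 29275 identifiers matched), and RefSeq GRCm38.p6 supplied promoters (37 of 49 members matched).

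The fit used log2(FPKM + 1), which understates differences of low genes, for genes that reached 1 FPKM in 3 or more of the 6 libraries. It was made with limma 3.58.1 in R 4.3.3 (eBayes with trend, genotype as the only term, two-sided), with Benjamini-Hochberg adjustment over 12284 genes and a threshold of 0.05, and was tested on simulated data. Tables and figures were made with Python 3.11.15. Members and lists were chosen with earlier results of these data known. Values of all libraries are given for the 5 members furthest in each direction, the 5 with the smallest p, the P stalk, Rpl5, Rpl11, the paralogs with their partners and the highest and lowest member, and up to 3 genes of each other list were named by p. Some genes that this rule names are not reported here. Titles number biological replicates without naming animals, so a p-value reflects how these libraries vary. Alternatives were other filters, pseudocounts, scalings, array weights, a replicate block, summed copies, an adjusted p threshold of 0.1 and each library left out.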

Additional observations from a re-analysis of the deposited data

How the results depend on the processing

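With 3 libraries per genotype, and WT replicate 3 unlike the other WT libraries, calls rest on single libraries. The counting tool and strand setting are unknown, so levels of members with many copies or overlapping genes are uncertain. Rpl3l had at most 5 fragments in any library, too few for a comparison. Of the log2 differences of single members under all settings, 721 kept their direction and side of the threshold, 45 turned and 1 passed the threshold. The cause was not tested.

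No filter on low values and the replicate number as a block each gave 0 genes called in all, against 2. Samples with the same number had correlations of 0.138, 0.032 and -0.206 between their deviations from the group means, so the numbers were not taken to pair them, and in the block 0 members were called. Leaving out 1 library gave 0 to 478 genes called, 0 to 1 members called, 13 to 27 members wholly below WT and 1 to 8 wholly above. In these fits 6.16% to 15.5% of all tested genes lay wholly below WT and 8.04% to 25.9% wholly above. Quantile normalization gave 8 wholly below and 5 wholly above, where 6.63% and 4.94% of all tested genes did. Summing copies gave 2 wholly above, and scaling to equal sums of FPKM, chosen after seeing the data, gave 3. Of all tested genes 6.27% and 8.22% lay wholly above in these 2 settings.

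Signs turned as follows, in log2 differences. With a pseudocount of 5, Rpl21 had -0.040. With median-ratio scaling, Rpl13a had -0.031, Rpl32 -0.021, Rpl7l1 -0.036, Rpl23a -0.060 and Rpl21 -0.059. With quantile normalization, Rpl27 had 0.00050, Rpl6 0.048, Rpl7 0.14, Rpl3 0.049, Rpl27a 0.046, Rpl23 0.073, Rpl19 0.16 and Rpl11 0.061. With array weights, Rpl13a had -0.14, Rpl32 -0.10, Rpl10l -0.30, Rpl23a -0.12 and Rpl21 -0.15. With copies summed, Rpl7a had 0.18, Rpl10a -0.025 and Rpl23a -0.10. With equal sums, Rpl23 had 0.027. Leaving out 1 library gave -0.55 to 0.17 for Rpl18, -0.89 to 0.21 for Rpl41, -0.29 to 0.45 for Rpl13a, -0.42 to 0.12 for Rpl35a, -0.31 to 0.43 for Rpl32, -0.16 to 0.14 for Rpl7l1, -0.39 to 0.12 for Rpl27a, -0.23 to 0.11 for Rpl23, -0.99 to 1.52 for Rpl10l, -0.66 to 0.43 for Rpl23a, -0.43 to 0.21 for Rpl19, -0.27 to 0.21 for Rpl11 and -0.60 to 0.53 for Rpl21.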

Other observations

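Copies of large subunit genes outside the members also had values. Rpl6l, a processed pseudogene by annotation, was listed at 45.3, 43.1 and 42.2 FPKM in the libraries labelled cKO, against 84.7, 59.9 and 28.8 FPKM in WT libraries. The retrocopy Rpl37rt had 10.1, 23.3 and 7.28 FPKM in the libraries labelled cKO, against 56.6, 26.8 and 25.7 FPKM in WT libraries. Every library labelled cKO lay below every WT library for Rpl37rt, as for its parent Rpl37, while the groups overlapped for Rpl6l. The germ cell copy Rpl39l was listed at 15.02, 0.788 and 0.719 FPKM in the libraries labelled cKO, against 0.7701, 0.3702 and 8.29 FPKM in WT libraries, with the same 2 high libraries as Rpl10l. Rpl36al and Rpl32l were listed at up to 2.04 and 1.34 FPKM.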
